A study of Mus musculus with 48 samples.

Results

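N6-methyladenosine (m6A) is laid down on RNA by a writer complex, taken off by erasers and bound by readers. The genes described here are the 10 m6A erasers and readers *Fto*, *Alkbh5*, *Ythdf1*, *Ythdf2*, *Ythdf3*, *Ythdc1*, *Ythdc2*, *Igf2bp1*, *Igf2bp2* and *Igf2bp3*. They were chosen by name, and each of the 10 has a line of its own among the 24010 genes measured. Poly(A) RNA came from mouse embryonic fibroblasts (MEFs) and from the same kind of cells on days 3, 6, 9, 12 and 15 of reprogramming to induced pluripotent stem cells. The MEFs carried the reverse tetracycline transactivator at *Rosa26*, a cassette at *Col1a1* that expresses Oct4, Sox2, Klf4 and c-Myc (OSKM) under doxycycline, and an *Oct4*-GFP reporter. All groups therefore share these alleles, and the MEF group had received no doxycycline. The other groups were kept in embryonic stem cell medium with serum, LIF and doxycycline at 1 µg/ml and fell into 3 arms. Control OE cells overexpressed an empty vector, *Mettl14* OE cells the RNA-binding partner of the writer complex, and *Mettl3* OE cells its catalytic subunit. With 3 libraries in each of 16 groups this made 48 libraries, each of a whole culture brought to single cells.

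FTO and ALKBH5 are iron- and alpha-ketoglutarate-dependent dioxygenases that remove the methyl group, so that the mark can be reversed. Readers of the YTH family hold the methylated adenosine in a pocket of their YTH domain. YTHDF1, YTHDF2 and YTHDF3 do so in the cytoplasm, where YTHDF2 is known for recruiting the CCR4-NOT deadenylase to its targets, whereas YTHDC1 works in the nucleus on splicing and export and YTHDC2 is an RNA helicase best known from meiosis. The IGF2BP proteins are oncofetal RNA-binding proteins, described as readers that stabilise their targets, and *Igf2bp1* and *Igf2bp3* are classical targets of the let-7 microRNAs.

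The values are FPKM, fragments per kilobase of transcript scaled to the depth of the library, so levels of different genes can be set side by side within a library. The deposited file joins 3 separately scaled tables, MEFs with day 3 in the first, days 6 and 9 in the second and days 12 and 15 in the third, whose median FPKM sums were 234441, 392245 and 432182. Values are therefore tested only inside a table, and the intervals from day 3 to 6 and from day 9 to 12 are given as levels side by side. Depth was estimated at 12.7 to 36.7 M fragments per library (median 22.9 M), which puts between 57.1 and 620 fragments on *Ythdc2* and at least 407 on each of the other 9 genes. Small RNAs, recognised by name, made up between 21.01% and 44.63% of all FPKM in a library. *Mettl14* lay at 184 to 476 FPKM in the 15 libraries of its own arm and at 4.30 to 7.47 FPKM in the other 33, and *Mettl3* at 1078 to 2919 FPKM in its own arm and at 3.34 to 6.79 FPKM elsewhere, so both labels held in every library. MEFs had the fibroblast markers *Thy1* at 31.8 to 36.7 FPKM and *Col1a1* at 71.3 to 74.5 FPKM, with the epithelial marker *Cdh1* at 0.0167 to 0.0519 FPKM and the pluripotency marker *Nanog* at 0 to 0.0759 FPKM. Nothing in the labels says whether the libraries of a group came from separate cultures, so p-values measure only the spread between libraries. In such whole cultures, fewer cells of a type and less RNA per cell cannot be told apart.

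All 10 genes were transcribed in MEFs, but at very different levels (the plot of FPKM by library shows each one). *Igf2bp2* was the highest at 23.6, 26.9 and 28.9 FPKM in the MEF libraries. *Ythdf2* followed at 13.1, 13.5 and 13.8 FPKM, and *Ythdc2* was the lowest at 0.621, 0.786 and 0.893 FPKM. The remaining 7 had group means between 7.20 FPKM (*Igf2bp1*) and 12.3 FPKM (*Alkbh5*), and in the order *Ythdf2*, *Alkbh5*, *Ythdc1*, *Igf2bp3*, *Ythdf1*, *Ythdf3*, each range overlapped with the next. Over all 48 libraries *Igf2bp2* ranged from 21.8 to 36.2 FPKM and *Ythdc2* from 0.621 to 3.13 FPKM. *Igf2bp2* had the highest group mean in 15 of the 16 groups. In the last, *Mettl14* OE on day 15, *Alkbh5* at 28.2, 28.3 and 26.3 FPKM and *Igf2bp2* at 28.1, 28.05 and 26.2 FPKM overlapped. *Igf2bp1* stood second from the bottom and *Ythdc2* at the bottom in every group.

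**Figure D1:**
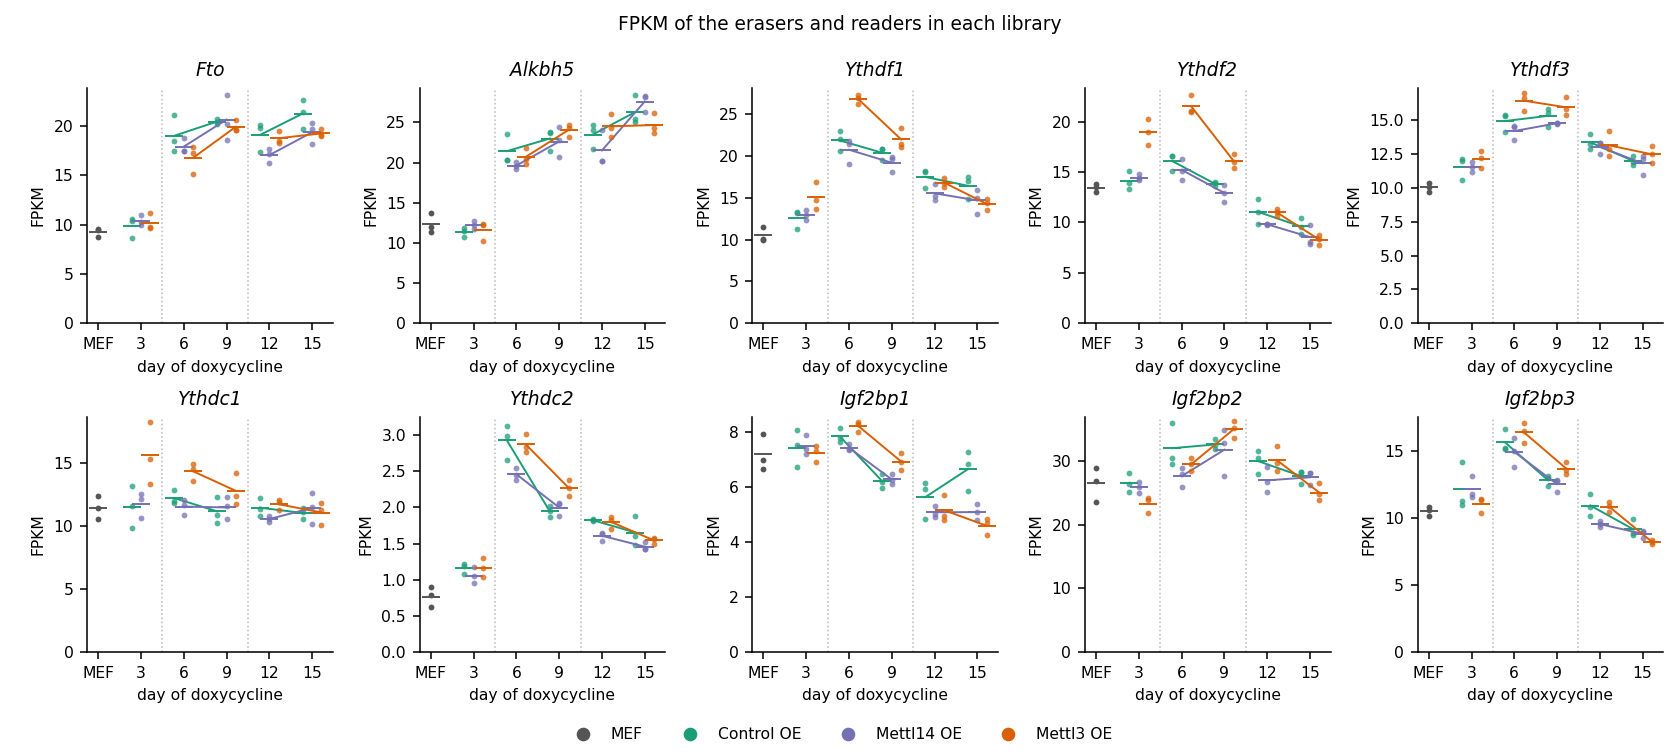
FPKM of each eraser and reader (vertical axis, from 0) in each of 48 libraries, by day of doxycycline and arm. Points are libraries, short bars group means of 3 libraries, lines join days inside a deposited table and dotted lines mark its borders; *Ythdf2* on days 3 and 6 and *Ythdc1* on day 3 stand higher in *Mettl3* OE, and *Igf2bp1* on day 15 stands lower in both OE arms than in Control OE.

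The second place changed hands with time. *Ythdf2* held it in MEFs and in all 3 arms on day 3. From day 9 on *Alkbh5*, *Fto* and *Ythdf1* took the places behind *Igf2bp2* in all 3 arms, except that *Alkbh5* stood above *Igf2bp2* in *Mettl14* OE on day 15 (means of 27.6 and 27.4 FPKM). On day 6 they did so in Control OE and *Mettl14* OE, while in *Mettl3* OE *Ythdf2* (mean 21.5 FPKM) still stood ahead of *Alkbh5* (20.7 FPKM) and *Fto* (16.8 FPKM). *Alkbh5* lay at 10.3 to 13.7 FPKM in the 12 libraries of MEFs and day 3 and at 19.2 to 28.4 FPKM in the 36 later ones. *Fto* lay at 8.69 to 11.2 FPKM before and at 15.2 to 23.2 FPKM after this border of the tables. Any separate scaling of the tables cannot be told apart from time there. *Ythdf2* went the other way at the late end, from 13.3, 13.9 and 15.1 FPKM in Control OE on day 3 to 9.59, 8.86 and 10.4 FPKM on day 15. These days lie in separate tables too.

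The first comparison asks whether raising a writer subunit was accompanied by other transcript levels of the erasers and readers. For *Mettl14* OE against Control OE, none of the 50 tests (10 genes on 5 days) passed at a Benjamini-Hochberg adjusted p under 0.05 with limma, and 3 had an unadjusted p under 0.05. These were *Igf2bp2* on day 6, *Igf2bp3* on day 12 and *Igf2bp1* on day 15, all lower in *Mettl14* OE. The 50 differences ran from -0.33 to 0.09 on the log2(FPKM + 1) scale. Among all genes tested, the share passing was 0.0203% (day 3), 0.00866% (day 6), 0.017% (day 9), 0.0168% (day 12) and 1.05% (day 15). An unadjusted p under 0.05 was given by limma for 337 of 9863 genes (day 3) and 825 of 11545 (day 6). On days 9, 12 and 15 these counts were 729 of 11792, 2922 of 11933 and 2059 of 12134. The median of all genes itself lay at -0.11 on day 6 and -0.12 on day 12 in this contrast, and at -0.01 and -0.00 once libraries were scaled by median ratios. The lowest value belonged to *Igf2bp1* on day 15, with 5.37, 5.10 and 4.79 FPKM against 6.83, 5.85 and 7.26 FPKM in Control OE. The ranges did not overlap, but the adjusted p was 0.0819 (log2 difference -0.33, SE 0.086). Under each of the 3 other scalings *Igf2bp1* did pass as lower on day 15, with -0.27 for median ratios (adjusted p 0.0437), -0.28 for quantile normalization (0.0467) and -0.38 for scaling to the FPKM sum without small RNAs (0.0141). Without Control OE day 12 replicate 2 or Control OE day 15 replicate 2 the count of 0 became 4 and 1.

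In *Mettl3* OE, *Ythdf2*, the reader that hands methylated transcripts to decay, stood higher than in Control OE early in reprogramming. On day 3 *Ythdf2* lay at 20.2, 18.9 and 17.7 FPKM in *Mettl3* OE, at 13.3, 13.9 and 15.1 FPKM in Control OE and at 14.2, 14.4 and 14.8 FPKM in *Mettl14* OE. On day 6 the values were 21.1, 22.6 and 20.96 FPKM, 16.6, 15.1 and 16.5 FPKM and 14.2, 16.3 and 15.1 FPKM in the same order. On both days all 3 *Mettl3* OE libraries exceeded all 6 others. The difference from Control OE was 0.40 on the log2 scale on day 3 (SE 0.073, limma adjusted p 0.00754) and 0.40 on day 6 (SE 0.076, adjusted p 0.0227), a 1.32-fold higher FPKM + 1 on each day. On day 9 *Ythdf2* was at 15.4, 16.8 and 15.99 FPKM against 13.6, 13.98 and 13.9 FPKM. These ranges did not overlap either, but the difference of 0.20 did not pass (adjusted p 0.0942). With libraries scaled by median ratios it did (0.18, adjusted p 0.0234), but not with quantile normalization or scaling without small RNAs. By day 12 the ranges overlapped, at 11.01, 11.4 and 10.7 FPKM against 12.3, 9.83 and 11.01 FPKM. On day 15 the 3 *Mettl3* OE libraries, at 7.75, 8.72 and 8.39 FPKM, lay below the 3 of Control OE at 9.59, 8.86 and 10.4 FPKM, with a difference of -0.19 that did not pass (adjusted p 0.160). The day 6 call was lost without Control OE day 6 replicate 2 (adjusted p 0.0791) or 3 (0.0679) or *Mettl3* OE day 6 replicate 2 (0.136) or 3 (0.0996), and its adjusted p ran from 0.000189 to 0.136 over the alternatives. The day 3 call held under each alternative (adjusted p 0.000275 to 0.0332).

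The promoter sequences of *Ythdf1*, *Ythdf2* and *Ythdc1* are shown because these 3 YTH genes had a larger effect of *Mettl3* OE on early than on late days, as tested further on. They are RefSeq sequences of build GRCm38.p6, from 250 bases before to 50 bases after the start site, and 7 of the 10 genes have an entry in that table (the others are *Ythdf3*, *Ythdc2* and *Igf2bp1*). Capitals mark exact matches, on either strand, to a GC box (GGGCGG), to the letters that name the CCAAT box, or to an E box (CACGTG). *Ythdf1* lies on chromosome 2 (minus strand, chr2:180920887-180921186), *Ythdf2* on chromosome 4 (minus strand, chr4:132212207-132212506) and *Ythdc1* on chromosome 5 (plus strand, chr5:86804016-86804315).
Ythdf1: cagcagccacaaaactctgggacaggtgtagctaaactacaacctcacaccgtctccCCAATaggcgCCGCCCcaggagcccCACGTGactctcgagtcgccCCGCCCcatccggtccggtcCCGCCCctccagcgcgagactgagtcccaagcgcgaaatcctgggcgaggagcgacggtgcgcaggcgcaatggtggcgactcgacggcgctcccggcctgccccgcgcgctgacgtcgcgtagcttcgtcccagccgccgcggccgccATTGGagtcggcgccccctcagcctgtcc
Ythdf2: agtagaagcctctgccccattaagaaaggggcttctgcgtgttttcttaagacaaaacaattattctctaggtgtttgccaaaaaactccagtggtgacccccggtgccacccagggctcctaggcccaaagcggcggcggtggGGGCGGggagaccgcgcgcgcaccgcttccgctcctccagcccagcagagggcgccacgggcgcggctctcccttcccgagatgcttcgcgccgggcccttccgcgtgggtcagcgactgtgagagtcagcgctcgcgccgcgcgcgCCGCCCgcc
Ythdc1: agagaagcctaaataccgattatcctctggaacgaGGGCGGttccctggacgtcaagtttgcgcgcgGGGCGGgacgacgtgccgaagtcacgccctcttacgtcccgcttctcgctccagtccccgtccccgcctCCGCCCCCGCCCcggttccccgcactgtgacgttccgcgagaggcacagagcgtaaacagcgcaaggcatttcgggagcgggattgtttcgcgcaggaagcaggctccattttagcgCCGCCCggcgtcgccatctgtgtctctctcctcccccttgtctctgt
Each of the 3 windows holds GC box letters, with 3 matches in *Ythdf1*, 2 in *Ythdf2* and 5 in *Ythdc1*, where a pair of them touches. *Alkbh5* and *Igf2bp2*, which did not pass in the early-against-late test, hold 2 GC boxes each, and *Fto* and *Igf2bp3* hold 0. *Ythdf1* also holds 2 CCAAT boxes and 1 E box. No match to an ETS core (CCGGAAG), a CRE (TGACGTCA) or a YY1 motif (AAGATGGC) was found in these 3 windows. Of all 27025 promoters of the same length, 35.91% hold a GC box, 37.92% a CCAAT box, 7.24% an E box, 9.12% an ETS core, 1.88% a CRE and 2.88% a YY1 motif. The GC content was 70.0%, 66.3% and 64.0% and the number of CpG 37, 32 and 35 for *Ythdf1*, *Ythdf2* and *Ythdc1*, against medians of 52.7% and 7 over all promoters. For *Fto*, *Alkbh5*, *Igf2bp2* and *Igf2bp3* the GC content was 60.7%, 55.3%, 76.7% and 60.3%, with 23, 18, 47 and 25 CpG.

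*Ythdf1*, the paralog known for promoting translation of its targets, had the same direction without passing. On day 3 it lay at 16.9, 14.7 and 13.6 FPKM in *Mettl3* OE and at 13.1, 11.2 and 13.3 FPKM in Control OE (difference 0.24, adjusted p 0.116). On day 6 it lay at 26.2, 26.8 and 27.3 FPKM against 23, 20.5 and 22 FPKM (difference 0.28, adjusted p 0.0655). The ranges did not overlap on either day. With libraries scaled by median ratios or quantile normalization, *Ythdf1* passed on both days, and with scaling without small RNAs only on day 6. The nuclear reader *Ythdc1* lay at 15.4, 13.4 and 18.3 FPKM in *Mettl3* OE on day 3 and at 9.86, 11.6 and 13.2 FPKM in Control OE, a difference of 0.41 with a wide error (SE 0.121, adjusted p 0.0566). One of these libraries, *Mettl3* OE day 3 replicate 3, holds the highest *Ythdc1* value of all 48. On day 6 *Ythdc1* lay at 14.6, 14.9 and 13.6 FPKM against 11.97, 11.9 and 12.9 FPKM, again without overlap (difference 0.22, adjusted p 0.115). *Ythdf3*, whose protein is described as acting with the other YTHDF readers, lay at 12.7, 11.5 and 12.2 FPKM against 10.6, 11.96 and 12.1 FPKM on day 3, where the ranges overlapped. On day 6 its ranges did not overlap, at 15.7 to 17.0 FPKM in *Mettl3* OE and 14.1 to 15.4 FPKM in Control OE, but it did not pass.

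*Igf2bp1* was the third call of *Mettl3* OE and the one that went down. On day 15 it lay at 4.84, 4.68 and 4.25 FPKM in *Mettl3* OE and at 6.83, 5.85 and 7.26 FPKM in Control OE. Every *Mettl3* OE library was below every Control OE library, and the difference was -0.45 (SE 0.086, adjusted p 0.00413), a 0.732-fold ratio of FPKM + 1. The call held under each alternative, with adjusted p from 4.03e-05 to 0.0243. On day 12 the ranges overlapped, at 4.95, 5.71 and 4.82 FPKM against 5.92, 4.83 and 6.14 FPKM. In all, *Mettl3* OE gave 3 passing tests of 50, 2 higher and 1 lower, and 9 with an unadjusted p under 0.05. That is 1 of 10 genes on days 3, 6 and 15 and 0 on days 9 and 12, where the share of all genes that passed was 9.5% (day 3), 4.31% (day 6), 9.35% (day 9), 5.47% (day 12) and 14.8% (day 15). These shares are of the same order as 1 gene in 10. The 9 with an unadjusted p under 0.05 were 4, 3, 1, 0 and 1 of 10 genes on days 3, 6, 9, 12 and 15. Over all genes, limma gave an unadjusted p under 0.05 for 2520 of 9863 (day 3) and 2707 of 11545 (day 6). On days 9, 12 and 15 it did so for 2718 of 11792, 2955 of 11933 and 3800 of 12134. The erasers gave no call in this arm. *Alkbh5* on day 3 lay at 12.3, 12.3 and 10.3 FPKM against 11.5, 10.8 and 11.8 FPKM, and *Fto* at 9.75, 11.2 and 9.62 FPKM against 10.4, 8.69 and 10.6 FPKM, with overlapping ranges for both.

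**Figure D2:**
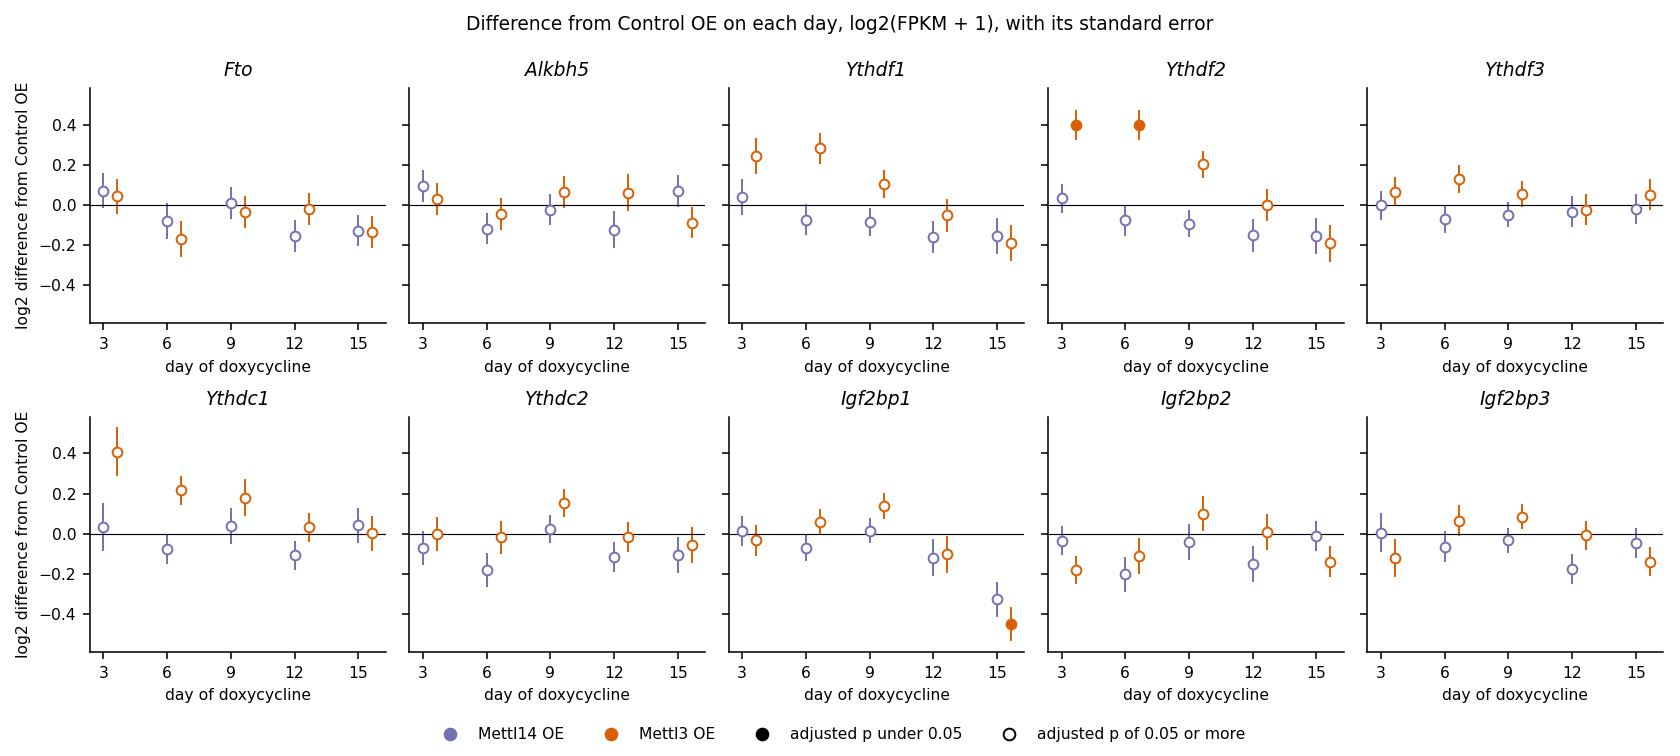
Difference of each OE arm from Control OE on each day (horizontal axis) in log2(FPKM + 1) units (vertical axis), with standard errors from limma over the 9 libraries of a day. Filled points have an adjusted p under 0.05; the 3 filled points are *Ythdf2* on days 3 and 6 at 0.40 and *Igf2bp1* on day 15 at -0.45, all in *Mettl3* OE.

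Set directly against *Mettl3* OE, the *Mettl14* OE libraries were lower in 5 of 50 tests and higher in none on the deposited scale. *Ythdf2* was lower on day 3 (-0.37, adjusted p 0.0168), day 6 (-0.48, adjusted p 0.0145) and day 9 (-0.30, adjusted p 0.0184). *Ythdf1* (-0.36, adjusted p 0.0307) and *Ythdc1* (-0.29, adjusted p 0.0457) were lower on day 6. The shares of all genes that passed, in either direction, were 4.61% (day 3), 5.65% (day 6), 13.4% (day 9), 4.16% (day 12) and 0.758% (day 15). Split into higher and lower, they were 3.28% and 1.34% (day 3), 0.728% and 4.92% (day 6) and 3.11% and 10.3% (day 9). With median-ratio scaling these were 3.86% and 2.57%, 2.06% and 3.38%, and 8.01% and 9.47%. *Fto* passed as higher on day 9 with quantile normalization and with scaling without small RNAs. The *Ythdc1* difference did not pass under median-ratio scaling (-0.21, adjusted p 0.0969), nor did the day 9 difference of *Ythdf2* with scaling without small RNAs (-0.08, adjusted p 0.513). Each of the 5 calls was lost on leaving out at least 1 library. For *Ythdf2* these were *Mettl14* OE day 3 replicate 1 (0.0728) or 2 (0.0681) and *Mettl3* OE day 3 replicate 1 (0.07) or 2 (0.0522), *Mettl14* OE day 6 replicate 1 (0.0571) or 3 (0.0564) and *Mettl3* OE day 6 replicate 2 (0.104) or 3 (0.0707), and *Mettl3* OE day 9 replicate 2 (0.089) or 3 (0.058). For *Ythdf1* these were *Mettl14* OE day 6 replicate 1 (0.0959) or 3 (0.0821) and *Mettl3* OE day 6 replicate 2 (0.149) or 3 (0.123), while the *Ythdc1* call was lost without any of the 6 libraries compared (0.0711 to 0.211). The count fell from 5 to 2 without *Mettl14* OE day 6 replicate 1 or 3 or *Mettl3* OE day 6 replicate 2 or 3.

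Over the mean of the 5 days, *Mettl3* OE was higher than Control OE in *Ythdf2* by 0.16 (SE 0.032, adjusted p 0.000145) and in *Ythdc1* by 0.17 (SE 0.041, adjusted p 0.00156). No gene of the 10 was lower as deposited or with median-ratio scaling, but *Fto*, *Igf2bp1* and *Igf2bp2* were lower with quantile normalization (-0.06, -0.06 and -0.05, adjusted p 0.0333, 0.0425 and 0.0466) and with scaling without small RNAs (-0.09, -0.10 and -0.09, adjusted p 0.0115, 0.00984 and 0.00739). *Ythdf1* was higher too with median-ratio scaling and with quantile normalization, and *Ythdf3* with median-ratio scaling. Over all genes 12.8% were higher and 22.8% lower, or 19.4% and 19.5% with median-ratio scaling. *Ythdf2* kept its call in every alternative, while *Ythdc1* lost it without day 3 (0.11, adjusted p 0.0697; the range over alternatives was 0.000365 to 0.0697). *Mettl14* OE was lower in *Ythdc2* by a log2 difference of -0.09 (adjusted p 0.0315) and in *Igf2bp1* by -0.10 (adjusted p 0.0413), where the median of all genes was -0.06. For *Mettl14* OE 0.118% of all genes stood higher and 13.0% lower, or 0.047% and 0.15% with median-ratio scaling. Under that scaling neither *Ythdc2* nor *Igf2bp1* passed. The *Igf2bp1* call was also lost without any of 14 single libraries (adjusted p 0.0521 to 0.087) and the *Ythdc2* call without any of 5 (0.0534 to 0.0694), and the count of 2 ran from 0 (without Control OE day 12 replicate 1, Control OE day 15 replicate 3 or *Mettl14* OE day 3, 12 or 15 replicate 3) to 5 (without Control OE day 12 replicate 2).

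The effect of *Mettl3* OE on the readers was not the same early and late. A contrast of the mean effect on days 3 and 6 with that on days 12 and 15, added after the values were seen, passed for 4 of the 10 genes, all higher early. The difference was largest for *Ythdf2* at 0.50 (SE 0.072, adjusted p 6.84e-06). It was 0.38 for *Ythdf1* (SE 0.079, adjusted p 0.00051), 0.29 for *Ythdc1* (SE 0.093, adjusted p 0.0179) and 0.29 for *Igf2bp1* (SE 0.072, adjusted p 0.0031). These 4 calls held in every alternative run, each left-out library included. The other 6 genes lay between -0.08 and 0.08. Among all genes 14.4% were higher early and 9.58% lower, or 15.6% and 15.8% with median-ratio scaling, under which the same 4 genes passed. For *Mettl14* OE no gene of the 10 passed and 1 (*Igf2bp1*) had an unadjusted p under 0.05, as did 1691 of all 12738 genes. There 0.00785% of all genes were higher and 0.0% lower, or 0.26% and 0.244% with median-ratio scaling.

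**Figure D3:**
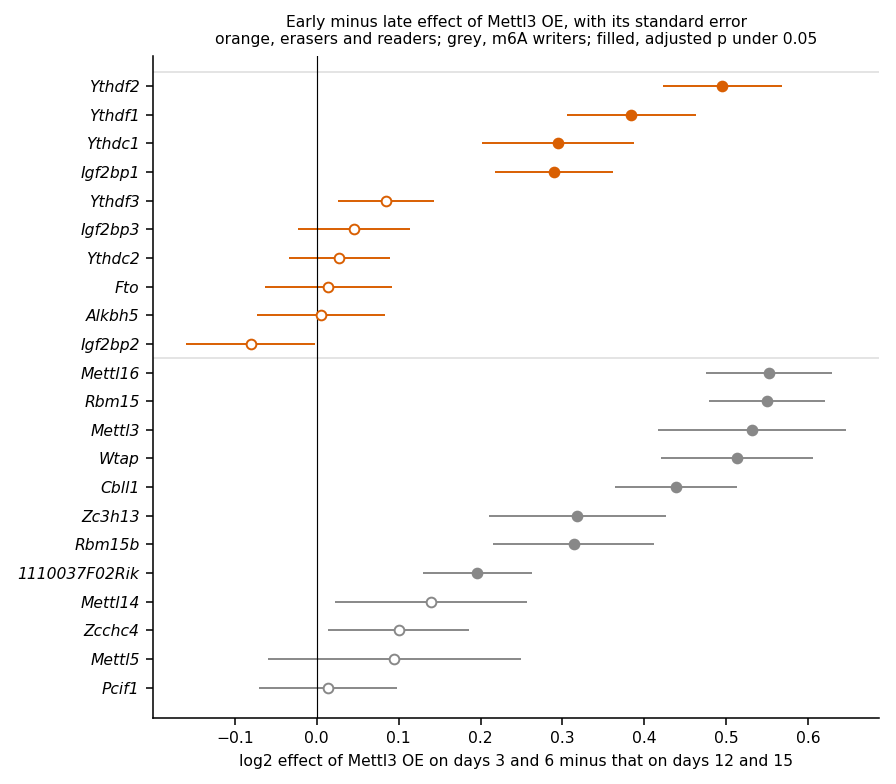
Effect of *Mettl3* OE on days 3 and 6 minus its effect on days 12 and 15 (horizontal axis, log2(FPKM + 1) units, with standard errors from limma over 48 libraries) for the erasers and readers and for the m6A writers. Filled points have an adjusted p under 0.05. *Ythdf2* at 0.50, *Ythdf1* at 0.38, *Ythdc1* at 0.29 and *Igf2bp1* at 0.29 are filled, as are 8 of 12 writers. The writers include *Mettl3*, the gene overexpressed in this arm.

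Of 12 writer genes, a list that includes the overexpressed *Mettl3*, 8 were higher early in this contrast and none lower. Their median was 0.32 against 0.02 over all genes. *Mettl16*, a separate m6A methyltransferase, stood at 0.55, *Rbm15*, which guides the complex to RNA, at 0.55, *Mettl3* itself at 0.53 and *Wtap*, the scaffold subunit, at 0.51. On day 3 alone, 6 of 12 writers were higher in *Mettl3* OE than in Control OE and none lower (median 0.28 against -0.02 over all genes). *Mettl3* is on this list, and its higher level in this arm was set by the design. *Wtap* was higher by 0.61, *Rbm15* by 0.50 and *Cbll1*, another subunit, by 0.43. On day 15 *Mettl16* and *Rbm15b* were lower, each by a log2 difference of -0.34, and only *Mettl3* was higher. *Mettl3* in its own arm ranged from 1582 to 2367 FPKM on day 3 and from 1078 to 1358 FPKM on day 15. Of 15 other proteins described as binding m6A RNA, none passed on days 3, 6, 9 or 12 and 6 were lower on day 15, among them *Srsf3* (-0.36), *Hnrnpa2b1* (-0.33) and *Lrpprc* (-0.32). In the early-minus-late contrast 5 of these 15 were higher and none lower (median 0.15). Of 15 measured partners and effectors of the readers, 3 were higher and 1 lower in that contrast, with *Pop1*, a subunit of the RNase P and MRP enzymes, at 0.79, the decay factor *Upf1* at 0.36, the deadenylase *Cnot8* at 0.20 and *Hrsp12* at -0.35. Of 7 other AlkB family genes 2 were higher, *Alkbh1* at 0.44 and *Alkbh8*, a tRNA-modifying enzyme, at 0.30. Over all genes 14.4% were higher and 9.58% lower in that contrast. The shares for *Mettl3* OE against Control OE were 3.54% and 5.96% on day 3 and 2.67% and 12.1% on day 15. Lists were chosen with earlier results of these data known.

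Cell type markers moved in the same contrasts. On day 6 the summed FPKM of 11 fibroblast markers was 633 to 964 in *Mettl3* OE and 1168 to 1485 in Control OE, and 2 of the 11 were lower and none higher. The sum of 10 epithelial markers was 445 to 638 against 312 to 356, with 4 of the 10 higher and none lower. On day 3 the fibroblast sum was 135 to 139 in *Mettl3* OE against 165 to 168. The epithelial sum was not higher on that day, at 24.5 to 35.4 against 30.9 to 41.3. On day 15 the sum of 10 pluripotency markers was 10.7 to 15.2 against 31.4 to 42.3. Of the 7 that passed the filter of 1 FPKM in 3 libraries, 6 were lower. Control OE alone can bring a gene past that filter, so this count was partly fixed by it. *Nanog*, for example, lay at 1.37 to 2.39 FPKM in Control OE and at 0.498 to 0.701 FPKM in *Mettl3* OE. Of 12 genes of dividing cells (G2/M) 7 were lower on day 15, with sums of 74.3 to 85.1 against 93.5 to 102. In the early-minus-late contrast 8 of the 12 G2/M genes were higher (median 0.27). Over all genes 1.888% were higher and 2.425% lower on day 6, and 2.67% and 12.1% on day 15. In the early-minus-late contrast these shares were 14.4% and 9.58%. The part of the marker shifts in the values of *Ythdf1*, *Ythdf2*, *Ythdc1* and *Igf2bp1* was not tested.

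The next comparison asks how the erasers and readers moved over time within each arm. The day 3 groups had doxycycline, embryonic stem cell medium and a vector together, and their parts in the step from MEFs cannot be told apart. From MEF to day 3, *Ythdc2*, the RNA helicase reader, rose in all 3 arms, from 0.621, 0.786 and 0.893 FPKM to 1.07, 1.22 and 1.19 FPKM in Control OE, 1.05, 1.17 and 0.949 FPKM in *Mettl14* OE and 1.16, 1.04 and 1.30 FPKM in *Mettl3* OE. Each day 3 library exceeded each MEF library. The rise was 0.29 in Control OE (SE 0.062, adjusted p 0.000114), 0.22 in the *Mettl14* arm (adjusted p 0.0027) and 0.29 in the *Mettl3* arm (adjusted p 0.000102). It was called under every alternative in which *Ythdc2* was tested, and the filter at 5 FPKM left the gene out. All MEF values lay under 1 FPKM, so the gene passed the main filter through later groups. *Ythdf1* rose from 10.0, 9.92 and 11.5 FPKM to 13.1, 11.2 and 13.3 FPKM in Control OE, by 0.24 (adjusted p 0.0116), by 0.27 in *Mettl14* OE (adjusted p 0.00351) and by 0.48 in *Mettl3* OE (adjusted p 2.25e-06). *Ythdf3* rose from 9.68, 10.4 and 10.1 FPKM to 10.6, 11.96 and 12.1 FPKM in Control OE, by 0.18 (adjusted p 0.00874), by 0.18 in *Mettl14* OE (adjusted p 0.00938) and by 0.25 in *Mettl3* OE (adjusted p 0.000445). *Igf2bp3*, a further oncofetal reader, rose by 0.18 under Control OE (adjusted p 0.0241) and by 0.19 under *Mettl14* OE (adjusted p 0.02). *Ythdf2* and *Ythdc1* passed in *Mettl3* OE, by 0.46 (adjusted p 9.73e-07) and 0.41 (adjusted p 0.000245). In Control OE their changes were 0.06 and 0.00.

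In all, 4 of the 10 genes rose from MEF to day 3 in Control OE, 4 in *Mettl14* OE and 5 in *Mettl3* OE. None fell on the deposited scale. Over all genes the shares that rose and fell were 34.0% and 17.2% in Control OE, 34.6% and 16.5% in *Mettl14* OE and 34.1% and 18.6% in *Mettl3* OE. With median-ratio scaling they were 31.2% and 28.1%, 30.9% and 27.0%, and 33.2% and 27.97%. Under that scaling only *Ythdc2* still rose in Control OE. *Alkbh5* and *Igf2bp2* fell in all 3 arms under that scaling and under quantile normalization. The changes of *Ythdf1* (0.12, adjusted p 0.0625), *Ythdf3* (0.06, adjusted p 0.343) and *Igf2bp3* (0.06, adjusted p 0.355) in Control OE no longer passed, nor did those of *Ythdf3* (adjusted p 0.411) and *Igf2bp3* (adjusted p 0.357) in *Mettl14* OE. With quantile normalization the rise of *Ythdf1* in *Mettl14* OE (0.11, adjusted p 0.109) and that of *Ythdf3* in *Mettl3* OE (0.13, adjusted p 0.0658) did not pass either. The *Ythdf1* call in Control OE was lost without Control OE day 3 replicate 1 (adjusted p 0.0557) or 3 (0.0663) or MEF replicate 1 (0.0524) or 2 (0.0609). The *Ythdf3* call was lost in Control OE without Control OE day 3 replicate 3 (0.0566) and in *Mettl14* OE without MEF replicate 1 (0.0504). The *Igf2bp3* call was lost in Control OE without Control OE day 3 replicate 3 (0.38) or MEF replicate 2 (0.088), and in *Mettl14* OE without MEF replicate 2 (0.0764) or *Mettl14* OE day 3 replicate 2 (0.138). Without Control OE day 3 replicate 3 the count of 4 in Control OE became 1, and without MEF replicate 2 it became 2. Over the same step 8 of 11 fibroblast markers fell in Control OE, and the summed FPKM of G2/M genes was 208 to 222 in MEFs and 182 to 197 in Control OE on day 3. Their part was not tested.

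From day 6 to day 9 the readers *Ythdc2*, *Ythdf2*, *Igf2bp1* and *Igf2bp3* fell in all 3 arms on the deposited scale. Scaled without small RNAs, all 4 still fell in *Mettl3* OE and *Ythdc2* and *Igf2bp1* in Control OE, but none passed in *Mettl14* OE (-0.11, -0.09, -0.09 and -0.11, adjusted p 0.339, 0.302, 0.312 and 0.258), nor did *Ythdf2* (-0.11, adjusted p 0.240) and *Igf2bp3* (-0.17, adjusted p 0.0699) in Control OE. *Ythdc2* fell from 2.66, 2.98 and 3.13 FPKM to 2.02, 1.86 and 1.95 FPKM in Control OE, by a log2 change of -0.41 (SE 0.062, adjusted p 1.39e-06). It also fell in *Mettl14* OE (-0.21, adjusted p 0.00703) and in *Mettl3* OE (-0.24, adjusted p 0.00135). *Ythdf2* fell in all 3 arms, most in *Mettl3* OE, where it went from 21.1, 22.6 and 20.96 FPKM to 15.4, 16.8 and 15.99 FPKM (-0.40, adjusted p 2.03e-05). With Control OE the change of *Ythdf2* was -0.20 (adjusted p 0.0213), and with *Mettl14* OE it was -0.22 (adjusted p 0.0137). *Ythdf1* fell in *Mettl3* OE, from 26.2, 26.8 and 27.3 FPKM to 21.1, 23.3 and 21.4 FPKM (-0.28, adjusted p 0.00399). *Ythdf3* passed in no arm, with 15.3, 14.1 and 15.4 FPKM on day 6 and 15.6, 14.5 and 15.9 FPKM on day 9 in Control OE. *Ythdc1* passed in no arm either.

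In *Mettl14* OE and *Mettl3* OE the erasers and *Igf2bp2* rose while the other IGF2BP genes fell. *Igf2bp3* fell from 16.7, 15.2 and 15.2 FPKM to 13, 12.4 and 13.2 FPKM in Control OE (-0.27, adjusted p 0.00183), by a log2 change of -0.23 in *Mettl14* OE (adjusted p 0.00602) and -0.25 in *Mettl3* OE (adjusted p 0.00318). *Igf2bp1* fell from 8.15, 7.63 and 7.77 FPKM to 5.97, 6.17 and 6.47 FPKM in Control OE (-0.30, adjusted p 0.00097), with changes of -0.21 for *Mettl14* OE (adjusted p 0.0169) and -0.22 for *Mettl3* OE (adjusted p 0.0118). In Control OE the day 9 libraries of both genes lay below all day 6 libraries. *Igf2bp2* rose in *Mettl3* OE from 30.4, 29.5 and 28.4 FPKM to 33.6, 36.2 and 35.1 FPKM (0.24, adjusted p 0.0109). *Igf2bp2* also rose in *Mettl14* OE (0.19, adjusted p 0.0493), and its change in Control OE was 0.03. *Fto* rose by 0.19 in *Mettl14* OE (adjusted p 0.0456) and by 0.24 in *Mettl3* OE (adjusted p 0.0105), and *Alkbh5* by 0.19 (adjusted p 0.0453) and 0.21 (adjusted p 0.0264). In Control OE, *Fto* went from 21.1, 17.4 and 18.5 FPKM to 20.2, 20.4 and 20.8 FPKM and *Alkbh5* from 23.6, 20.3 and 20.4 FPKM to 21.5, 23.6 and 23.9 FPKM, and neither passed. Under each of the 3 other scalings both erasers did rise in Control OE, by 0.18 and 0.18 with median ratios (adjusted p 0.00778 and 0.0083), by 0.22 and 0.20 with quantile normalization (0.00126 and 0.00175) and by 0.20 and 0.19 without small RNAs (0.0138 and 0.0265), and *Igf2bp2* rose there with quantile normalization (0.14, adjusted p 0.0169).

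The counts from day 6 to day 9 were 0 up and 4 down in Control OE, 3 up and 4 down in *Mettl14* OE and 3 up and 5 down in *Mettl3* OE. With median ratios, quantile normalization and scaling without small RNAs, in that order, Control OE gave 2, 3 and 2 up and 4, 3 and 2 down, *Mettl14* OE 3 up each time and 3, 4 and 0 down, and *Mettl3* OE 3 up and 5 down each time. Over all genes 16.7% rose and 26.6% fell in Control OE, 18.8% and 22.4% in *Mettl14* OE and 23.4% and 24.5% in *Mettl3* OE. With median-ratio scaling the shares in Control OE were 21.4% and 21.0%. Scaling to the FPKM sum without small RNAs gave 27.8% and 13.1% in *Mettl14* OE. The step itself differed from that of Control OE for none of the 10 genes, in either OE arm. The nearest were *Ythdc2* in *Mettl14* OE (difference 0.21, unadjusted p 0.0237) and *Ythdc2*, *Ythdf2* and *Igf2bp2* in *Mettl3* OE (adjusted p 0.414, 0.417 and 0.429). Calls in *Mettl3* OE that held in every alternative were those of *Ythdf1*, *Ythdf2*, *Ythdc2*, *Igf2bp2* and *Igf2bp3*, and in Control OE those of *Ythdc2* and *Igf2bp1*. For *Ythdc2* the filter at 5 FPKM is not among them, since it left the gene out.

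Most other calls of this step rested on single libraries, and that of *Ythdc2* in *Mettl14* OE was lost under median-ratio scaling (-0.17, adjusted p 0.0513). The *Ythdf2* call in Control OE was lost without day 6 replicate 1 (adjusted p 0.0701) or 3 (0.0762) or day 9 replicate 1 (0.0592), and in *Mettl14* OE without day 6 replicate 2 (0.0973) or day 9 replicate 3 (0.0897). In *Mettl14* OE the *Igf2bp1* call was lost without day 6 replicate 2 (0.0556) or day 9 replicate 3 (0.0577) and the *Igf2bp3* call without day 6 replicate 2 (0.0562). The *Igf2bp1* call in *Mettl3* OE was lost without day 9 replicate 1 (0.0556). The *Fto* call was lost in *Mettl14* OE without day 6 replicate 2 (0.126) or 3 (0.126) or day 9 replicate 1 (0.0742) or 2 (0.294), and in *Mettl3* OE without day 6 replicate 3 (0.1). The *Alkbh5* call was lost in *Mettl14* OE without day 6 replicate 1 (0.0994), 2 (0.0685) or 3 (0.0961) or day 9 replicate 1 (0.23) or 2 (0.0858), and in *Mettl3* OE without day 6 replicate 2 (0.0688) or 3 (0.102) or day 9 replicate 2 (0.0747) or 3 (0.0691). The *Igf2bp2* call in *Mettl14* OE was lost without day 6 replicate 1 (0.172) or 3 (0.0843) or day 9 replicate 1 (0.288) or 2 (0.132). Without a filter on low values the rises of *Fto*, *Alkbh5* and *Igf2bp2* in *Mettl14* OE did not pass either (adjusted p 0.0696, 0.0691 and 0.0745). The count of 7 in *Mettl14* OE became 2 without day 6 replicate 2 and 4 without day 6 replicate 3 or day 9 replicate 1 or 2.

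**Figure D4:**
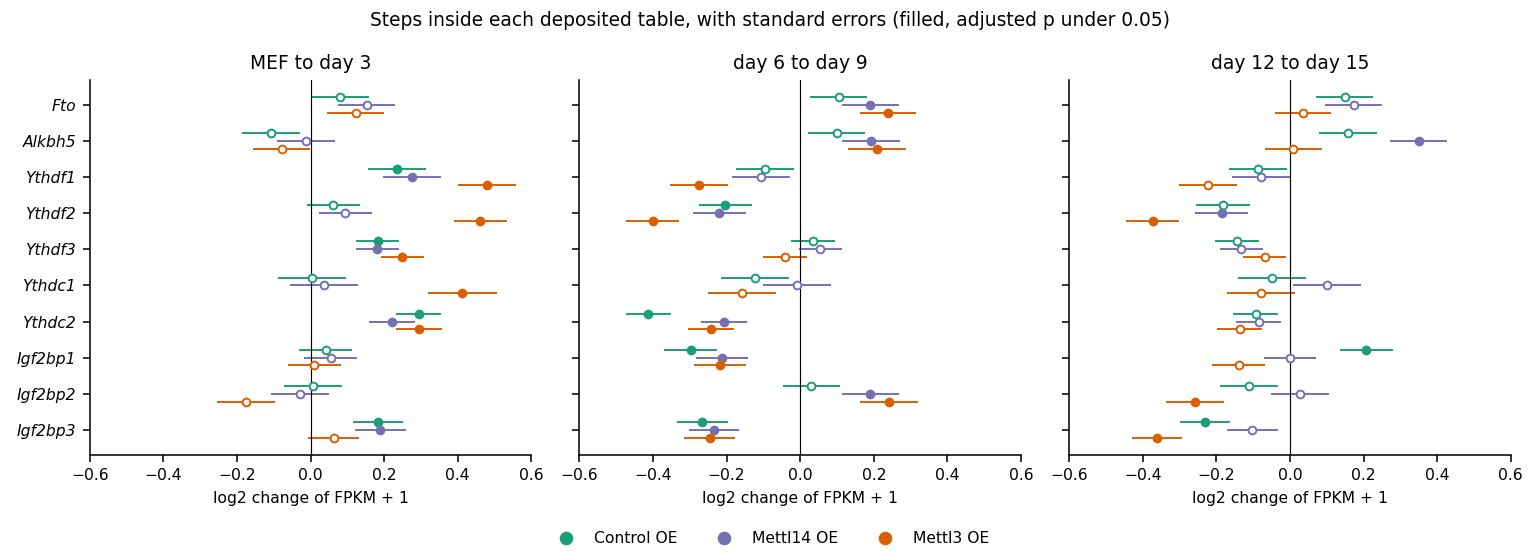
Change of each eraser and reader over the 3 intervals inside a deposited table (MEF to day 3, day 6 to day 9, day 12 to day 15), in log2(FPKM + 1) units (horizontal axis) with standard errors from limma over 48 libraries, by arm. Filled points have an adjusted p under 0.05; *Ythdc2* rose first (0.29 in Control OE) and then fell (-0.41 in Control OE), and *Igf2bp3* fell in all 3 arms from day 6 to day 9 on the deposited scale.

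*Igf2bp1* and *Igf2bp3* carry matches to the let-7 seed in their 3′ untranslated regions, as does *Igf2bp2*, and these are printed because the IGF2BP genes parted in this step. The mature let-7a-5p of RefSeq (build GRCm38.p6, chromosome 13, chr13:48538239-48538260, minus strand) is shown with its seed, bases 2 to 8, in capitals, and the transcripts (GENCODE M21, longest protein-coding transcript of each gene) with the 7 bases that pair with the seed in capitals. Positions count from 1 at the first base of the untranslated region.
let-7a-5p: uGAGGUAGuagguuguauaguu
Igf2bp1 at 1715: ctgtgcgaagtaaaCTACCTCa
Igf2bp1 at 4136: agcagtgctattaaCTACCTCa
Igf2bp1 at 4730: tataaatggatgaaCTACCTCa
Igf2bp1 at 5353: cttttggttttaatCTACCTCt
Igf2bp2 at 1313: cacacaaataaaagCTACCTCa
Igf2bp3 at 548: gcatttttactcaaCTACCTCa
*Igf2bp1* (chromosome 11) holds 4 matches in 6337 bases, 3 of them followed by an A, while *Igf2bp2* (chromosome 16) holds 1 in 1784 bases and *Igf2bp3* (chromosome 6) 1 in 2119 bases. The other 7 genes hold 0. The level of let-7 is not analysed here. Of 13 other let-7 targets of the fetal programme, 11 passed the filter of 1 FPKM in 3 libraries. Of these 11, 6 fell and 2 rose from day 6 to day 9 in Control OE (median -0.32 against -0.06 over all genes). *Ccnd2*, a cyclin, fell by 0.59 on the log2 scale, *Hmga2*, a chromatin protein of fetal cells, fell by 0.39 and the microRNA-processing enzyme *Dicer1* fell by 0.38, while *Mycn* rose by 0.53. Over the same step all 12 G2/M genes fell (median -0.58, with summed FPKM of 204 to 249 on day 6 and 140 to 150 on day 9), and 9 of 11 fibroblast and 10 of 10 epithelial markers rose. Their part in the fall of *Igf2bp1*, *Igf2bp3*, *Ythdf2* and *Ythdc2* was not tested. Of the 15 other m6A-binding proteins 9 fell and none rose in Control OE, with *Hnrnpa2b1* at -0.44, *Eif3a* at -0.43 and *Srsf10* at -0.40 (median -0.25), and of the 12 writers 3 fell. Of the 15 partners of the readers *Pop1* (-0.78), *Rqcd1*, a CCR4-NOT subunit (-0.48), and *Cnot1*, its scaffold (-0.18), fell and *Hrsp12* rose (0.40). Of 7 other AlkB genes *Alkbh3* (-0.43) and *Alkbh4* (-0.30) fell. Over all genes 26.6% fell and 16.7% rose in this step of Control OE. The counts of writers, partners and AlkB genes lay near or below these shares.

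From day 12 to day 15 fewer genes passed. *Igf2bp3* fell in *Mettl3* OE from 10.9, 11.2 and 10.4 FPKM to 8.39, 8.22 and 8.10 FPKM (-0.36, adjusted p 0.000494) and in Control OE from 11.8, 10.2 and 10.8 FPKM to 8.75, 8.88 and 9.92 FPKM (-0.23, adjusted p 0.0189). *Ythdf2* fell in *Mettl3* OE from 11.01, 11.4 and 10.7 FPKM to 7.75, 8.72 and 8.39 FPKM (-0.37, adjusted p 0.000623), and so it did under *Mettl14* OE (-0.19, adjusted p 0.0472). The day 15 libraries of *Mettl3* OE lay below those of day 12 for both genes. *Igf2bp2* also fell in *Mettl3* OE (-0.26, adjusted p 0.0337). Rising genes were *Igf2bp1* in Control OE, from 5.92, 4.83 and 6.14 FPKM to 6.83, 5.85 and 7.26 FPKM (0.21, adjusted p 0.0435), and *Alkbh5* in *Mettl14* OE, from 20.2, 24.1 and 20.2 FPKM to 28.2, 28.3 and 26.3 FPKM (0.35, adjusted p 0.00103). The step of *Igf2bp1* differed between *Mettl3* OE and Control OE by -0.35, which did not pass (unadjusted p 0.00158, adjusted p 0.336), and none of the 10 genes passed in this comparison of steps for either OE arm.

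This made 1 up and 1 down in Control OE, 1 up and 1 down in *Mettl14* OE and 0 up and 3 down in *Mettl3* OE. The split turned to falls under the other scalings. With median ratios, quantile normalization and scaling without small RNAs, in that order, Control OE gave 0 up and 5, 6 and 5 down, *Mettl14* OE 1, 0 and 0 up and 4, 6 and 7 down, and *Mettl3* OE 0 up and 4, 4 and 5 down. *Ythdf1*, *Ythdf2*, *Ythdf3* and *Igf2bp3* fell in Control OE and *Mettl14* OE under each of these 3. Over all genes 12.8% rose and 2.99% fell in Control OE, 28.4% and 2.65% in *Mettl14* OE and 4.05% and 4.47% in *Mettl3* OE. With median-ratio scaling these shares were 9.00% and 8.21% in Control OE and 12.1% and 9.73% in *Mettl14* OE, where the median of all genes moved from 0.15 to 0.02. In *Mettl3* OE scaling without small RNAs gave 2.57% and 11.7%. Relative to that median, *Alkbh5* in *Mettl14* OE remained higher under median-ratio scaling, but its call was lost under quantile normalization (adjusted p 0.0999) and under scaling without small RNAs (0.564). The *Igf2bp1* call in Control OE was lost under median-ratio scaling (0.13, adjusted p 0.0838). It was also lost without Control OE day 12 replicate 2 (adjusted p 0.342) or day 15 replicate 1 (0.138) or 3 (0.213), and the *Igf2bp3* call in Control OE without day 12 replicate 1 (0.102) or day 15 replicate 1 (0.0926) or 2 (0.0652). The *Ythdf2* call in *Mettl14* OE was lost without day 12 replicate 1 (0.088), 2 (0.0814) or 3 (0.121) or day 15 replicate 2 (0.187) or 3 (0.19), and the *Igf2bp2* call in *Mettl3* OE without day 12 replicate 1 (0.0687) or 2 (0.171) or day 15 replicate 1 (0.109) or 3 (0.131). The count of 2 in Control OE became 0 without day 15 replicate 1 and 1 without day 15 replicate 2 or 3 or day 12 replicate 1, and that of 2 in *Mettl14* OE became 1 without day 15 replicate 2 or any day 12 replicate. Only the *Ythdf2* and *Igf2bp3* calls of *Mettl3* OE held in every alternative. Over this step 6 of 7 pluripotency markers and 7 of 7 macrophage markers that passed the filter of 1 FPKM in 3 libraries rose in Control OE. A gene can pass that filter through day 15 alone, so these counts were partly fixed by it. *Esrrb*, for example, lay at 0.193 to 0.622 FPKM in Control OE on day 12 and at 0.917 to 1.51 FPKM on day 15. The part of these markers was not tested.

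The share of each paralog within its family does not depend on how a library was scaled, so these shares were also set side by side across the tables. Other differences between the tables cannot be told apart from time at their borders. In Control OE the largest moves of the *Ythdf1* share (32.8% to 41.3%) and the *Ythdf2* share, from day 3 to day 6, lie on such a border. *Ythdf2* made up 39.6% ± 0.50 (SD, n = 3) of the summed FPKM of *Ythdf1*, *Ythdf2* and *Ythdf3* in MEFs. In Control OE its mean share was 36.9% (day 3), 30.4% (day 6), 27.9% (day 9), 26.3% (day 12) and 25.3% (day 15), while group means of *Ythdf1* were 30.8% in MEFs and 40.4% to 43.1% from day 6 on. From day 6 to day 9 the *Ythdf2* share fell in each of the 3 arms, by 2.93 percentage points on average, and that of *Ythdf3* rose by 3.35 (exact permutation within arms, two-sided, p 0.00025 for both, the smallest that its 8000 arrangements allow, adjusted p 0.00117 over 28 tests of shares and ratios). The share of *Ythdf1* changed by -0.42 points (exact permutation p 0.222). From day 12 to day 15 the *Ythdf2* share fell by a further 1.85 points (exact permutation p 0.00375, adjusted p 0.0117).

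Among the IGF2BP genes, *Igf2bp2* held more than the other two together in every group. Its share rose from 55.7% on day 6 to 62.9% on day 9, by 7.17 points, while that of *Igf2bp3* fell by 4.72 points and that of *Igf2bp1* fell by 2.45 points (exact permutation p 0.00025 and adjusted p 0.00117 for each, the same direction in all 3 arms). From day 12 to day 15 *Igf2bp3* fell by 1.94 points (exact permutation p 0.00025, adjusted p 0.00117) and *Igf2bp1* rose by 1.41 points on average (exact permutation p 0.0035, adjusted p 0.0117). The *Igf2bp1* share went from 12.1% to 15.3% in Control OE and from 11.2% to 12.1% in *Mettl3* OE, but stayed within its spread in *Mettl14* OE (12.2% ± 0.24 and 12.3% ± 0.31, SD, n = 3).

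Between arms, 2 of 14 such tests passed, both for *Mettl3* OE. The *Ythdf2* share was higher than in Control OE by 1.55 points over the 5 days (permutation within days, 100000 resamples, p 0.00376, adjusted p 0.0117) and higher on 4 of 5 days, with mean shares of 41.1% against 36.9% on day 3 and 23.7% against 25.3% on day 15. The log2 ratio of *Fto* to *Alkbh5* was lower by a difference of -0.07 (permutation p 0.0165, adjusted p 0.0461) and higher on 1 of 5 days, and this call was lost without any of 15 single libraries (adjusted p 0.0526 to 0.145). For *Mettl14* OE none of 7 passed (permutation with 100000 resamples), and none had an unadjusted p under 0.05. In all, 10 of the 28 tests passed.

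**Figure D5:**
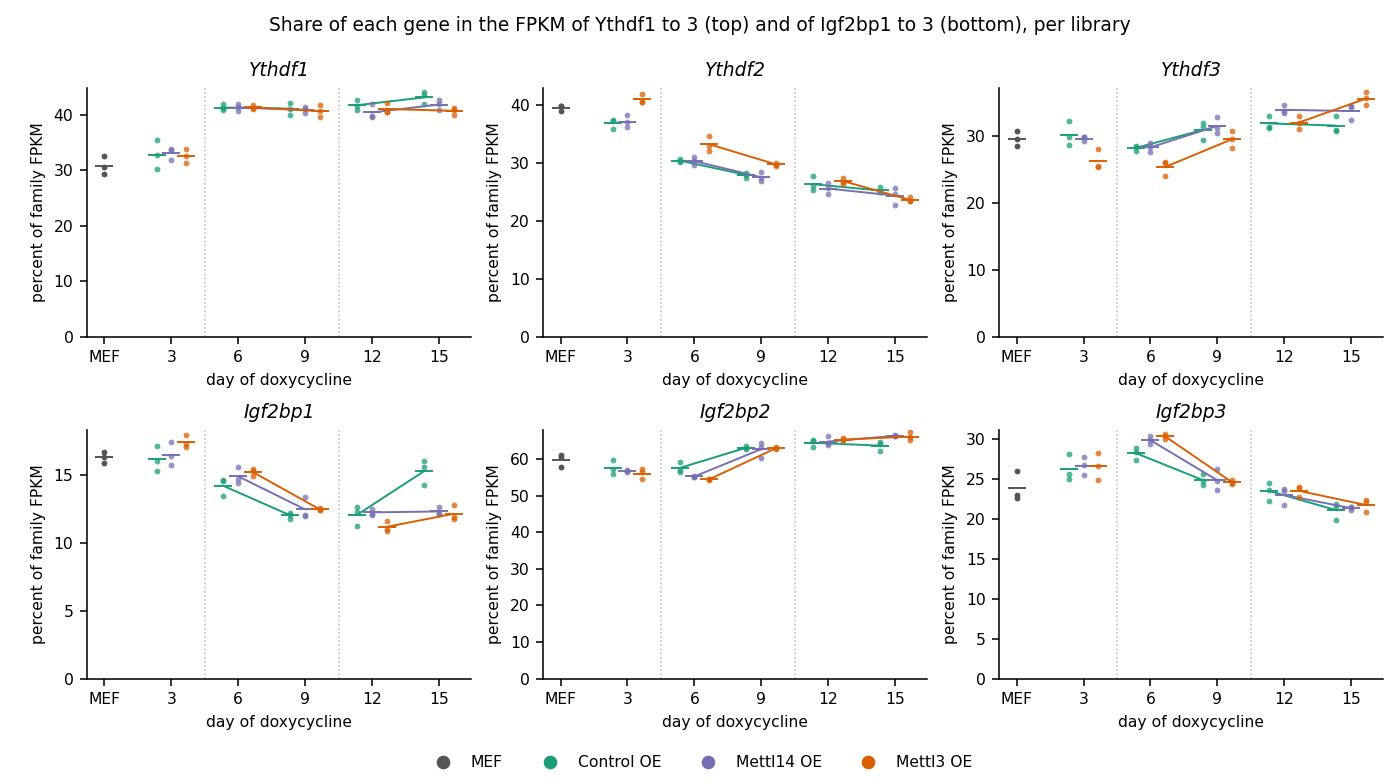
Share of each gene in the summed FPKM of *Ythdf1*, *Ythdf2* and *Ythdf3* (top) and of *Igf2bp1*, *Igf2bp2* and *Igf2bp3* (bottom), in percent on vertical axes that start at 0, in each of 48 libraries by day and arm. Points are libraries and short bars group means. The *Ythdf2* share stands at 39.6% in MEFs and, in a separate table, at 25.3% in Control OE on day 15. The *Igf2bp2* share rises from 55.7% to 62.9% from day 6 to day 9.

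The 10 genes fell into patterns that were compared across the 48 libraries after the mean of each table was taken off, among 7313 genes with a mean of at least 5 FPKM. These correlations are descriptions, since the libraries share days and arms. *Ythdf2* went most like *Wtap* (r = 0.903), the scaffold of the writer complex, followed by *Nup153* (0.899) and the nucleolar protein gene *Ncl* (0.897). *Ythdf1* went most like *Ppp4r1* (0.897), *Thumpd1* (0.890) and *Ythdf2* (0.890). For *Ythdf3* the most similar were *Nufip2* (0.847), *Hdgfrp3* (0.845) and *Vcpip1* (0.812), for *Ythdc1* *Rbbp6* (0.800), *Ccdc55* (0.789) and *Ppig* (0.785), and for *Ythdc2* *Usp24* (0.864), *Senp5* (0.861) and *Ranbp2* (0.853). *Igf2bp3* went most like the RNA-binding protein genes *Syncrip* (0.889) and *Myef2* (0.878) and the helicase gene *Ddx3x* (0.877). *Igf2bp1* went most like the tRNA synthetase genes *Aars* (0.837) and *Wars* (0.832) and then *Xpo6* (0.818). Among the genes most like *Igf2bp2* were *Brd3* (0.800) and the desaturase gene *Scd2* (0.794). *Fto* went with *Akt2* (0.850), *Os9* (0.848) and *Add1* (0.846), and *Alkbh5* with *Scaf1* (0.835), *App* (0.833) and *Pttg1ip* (0.830). Between the erasers r was 0.647.

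Reads of related sequences bear on some of these levels. Between the YTHDF paralogs the longest identical run was 22 bases, and between the IGF2BP paralogs 28 bases, so no window of 50 bases is shared inside a family. Windows of 50 bases of the longest protein-coding GENCODE M21 transcript were matched on either strand, while the libraries were made with a stranded kit. Of these windows, 34.45% of *Igf2bp3* also occur in *Malsu1*, 18.2% of *Ythdc1* in *Gm43055* and 8.55% of *Ythdf2* in other genes, mostly *Gm6823*. The values of these 3 genes are uncertain to the extent that fragments from there were shared out.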

How the data were processed

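RNA-seq of poly(A) RNA (KAPA stranded kit) was read from 1 deposited table of FPKM values for 48 libraries. Per the labels, the authors used TopHat2 2.1.1 and Cufflinks 2.2.1 with build mm9; no counts were used here. The table holds 24013 lines; 1 exact copy was dropped and 4 lines sharing a symbol were summed, leaving 24010 genes, 1473 of them at 0 throughout. Depth was estimated from low FPKM values of 2990 single-transcript genes with GENCODE M21 lengths, which are not the authors'.

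Groups came from titles, time points and conditions. log2(FPKM + 1) was tested with limma 3.58.1 (trend, robust; R 4.3.3) keeping genes that reached 1 FPKM in 3 or more libraries of the fit, adjusted by Benjamini-Hochberg over all genes tested; fold changes are of FPKM + 1 and understate low genes. Arms within a day used 9 libraries, other contrasts all 48. Passing means an adjusted p under 0.05, with no fold threshold. Shares used permutation tests (NumPy 2.4.6, SciPy 1.17.1, pandas 2.3.3, Python 3.11.15; figures, matplotlib 3.10.9). Scripts were tested on simulated data. Besides the 10 genes, up to 4 passing genes with the largest change per list are named, and 3 most similar genes per member. The members and lists were chosen with earlier results of these data known. Alternatives were median-ratio and quantile scaling, a pseudocount of 0.1, filters of 0 and 5 FPKM, all 48 libraries or 1 table in a fit, the replicate block, and leaving out libraries or days. The early-minus-late contrast and scaling without small RNAs were chosen after seeing the data. A gene found in the search for similar patterns is not reported here.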

Additional observations from a re-analysis of the deposited data

Results flagged for a closer look

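The effect of *Mettl3* OE against Control OE differed between early days (3 and 6) and late days (12 and 15) for 4 readers by limma over 48 libraries. The early effect exceeded the late one by 0.50 on the log2(FPKM + 1) scale for *Ythdf2* (adjusted p 6.84e-06), by 0.38 for *Ythdf1* (adjusted p 0.00051), by 0.29 for *Ythdc1* (adjusted p 0.0179) and by 0.29 for *Igf2bp1* (adjusted p 0.0031). For *Ythdf2* and *Ythdf1* the early side holds most of the difference, with effects of 0.40 and 0.24 on day 3 and of -0.19 and -0.19 on day 15. For *Ythdc1* the effect was 0.41 on day 3 and 0.00 on day 15, and for *Igf2bp1* it was -0.03 on day 3 and -0.45 on day 15. The contrast was added after the values had been seen.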

How the results depend on the processing

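Across the alternatives, 968 of the values for named results kept their direction and their side of the threshold, 179 kept their direction but no longer passed, and none reversed. The counts of passing genes below moved beyond 1.5 times, and the cause was not tested. From MEF to day 3, scaling without small RNAs gave 2 in Control OE (4 in the report) and 2 in *Mettl14* OE (4). For *Mettl14* OE within days (0), 1 passed in a fit of all 48 libraries, with median-ratio scaling, with quantile normalization and without small RNAs. For its mean over 5 days (2), 0 passed with median-ratio scaling, quantile normalization or scaling without small RNAs, 1 without a filter, 4 without day 3, and 0 without day 6, 12 or 15; its early-minus-late contrast (0) gave 2 without small RNAs. *Mettl14* OE against *Mettl3* OE (5) gave 2 without a filter. For *Mettl3* OE within days (3), median-ratio scaling, quantile normalization and the fit of 48 libraries each gave 6. Its mean over 5 days (2) gave 4, 6 and 5 with median-ratio scaling, quantile normalization and scaling without small RNAs, 1 without day 3 and 4 without day 9 or 12. From day 6 to day 9, *Mettl14* OE (7) gave 4 without a filter, 4 within 1 table and 3 without small RNAs, and the step of *Mettl3* OE minus that of Control OE (0) gave 1 with quantile normalization. From day 12 to day 15, Control OE (2) gave 5, 6 and 5 with the 3 scalings in that order and 1 with a pseudocount of 0.1, without a filter or within 1 table; *Mettl14* OE (2) gave 5, 6 and 7 and 1 without a filter or within 1 table; *Mettl3* OE (3) gave 5 without small RNAs.

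The replicate numbers are no pairing: over 45 pairs of same-numbered libraries of a day, their deviations correlated at -0.301 to 0.341 (median -0.048), and 9 were over 0.1. With the replicate block *Mettl3* OE within days gave 5 passing tests and *Mettl14* OE from day 12 to day 15 gave 1; the block changed no other count beyond 1.5 times.

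Leaving out 1 library at a time gave 1 to 4 passing genes from MEF to day 3 in Control OE, 3 to 4 in *Mettl14* OE and 5 to 6 in *Mettl3* OE. From day 6 to day 9 it gave 3 to 4, 2 to 5 and 6 to 8, and from day 12 to day 15 0 to 2, 1 to 2 and 2 to 3. Within days it gave 0 to 4 for *Mettl14* OE, 2 to 4 for *Mettl3* OE and 2 to 6 between them. The means of 5 days gave 0 to 5 for *Mettl14* OE and 2 to 3 for *Mettl3* OE. Early minus late gave 4 for *Mettl3* OE and 0 for *Mettl14* OE in each case, the differences between steps gave 0, and 9 to 12 share tests passed. Depth limits *Ythdc2* most, with 57.1 fragments in its lowest library.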
